A study of Mus musculus with 3 samples.

Results

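Optn encodes optineurin, an adaptor protein that binds ubiquitin and the kinase TBK1 and serves as a receptor in selective autophagy. The small RNAs of this gene were taken as the reads whose first 20 nt matched an Optn exon of the GENCODE M21 annotation on either strand, after the 3' linker had been removed. They numbered 701 of the 807278 reads that matched any annotated transcript, and Optn was 1 of 25330 annotated genes with a matched read. Of the 701, 699 lay in the 3' UTR and 2 in the coding region. The gene lies at chr2:5020642-5064051 on the minus strand of GRCm38, with 5 transcripts and 3753 nt of exon sequence in all. Its 3' UTR spans chr2:5020642-5021350 (709 nt).

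The study profiled small RNAs in fully grown oocytes of mice, the stage at which an oocyte has finished its growth inside the follicle. For every library the mice were injected with PMSG (5 IU), a hormone used to make follicles grow, and were killed 48 hours afterwards. Total RNA was cut from polyacrylamide gels in windows of 19-24, 19-30 and 24-30 nt, each made into 1 library and sequenced on its own. The strain and age of the mice, and whether the windows came from the same RNA, are not given in the sources used here. Reads were 26 nt long in the 19-24 and 24-30 nt libraries and 36 nt long in the 19-30 nt library, so read length and window cannot be told apart for the 19-30 nt library. With 1 library per window no difference has a replicate check, no p-value is given, and every 95% interval covers counting error only.

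Usable inserts numbered 681770, 438407 and 1424254 in the 19-24, 19-30 and 24-30 nt libraries, and 315697, 146947 and 344634 of them matched an annotated transcript. MicroRNAs made up 78.5%, 18.4% and 7.34% of the matched reads. Fragments of oocyte messenger RNAs were present in all 3 libraries, with 7, 4 and 8 of 10 listed genes detected and 87.5, 248 and 113 reads per 1000000 matched reads (RPM) in all. Zp1 and Oosp1 had none in the 19-24 and 19-30 nt libraries, and Zp2, Zp3 and Bmp15 none in the 19-30 nt library. Oog1 had no read with a single match in any library, and Mos none in the 24-30 nt library. With multiply matching reads given fractional weight, Nlrp5 held 27.1 and Oog1 6.25 of the 36.5 reads in the 19-30 nt library. MicroRNAs listed for granulosa and stroma (3 of 3 detected in each library) reached 45477, 1198 and 830 RPM, and the red cell microRNA Mir451a 9845, 61.2 and 369 RPM. MicroRNAs listed for germ cells and early embryos (3 of 3 detected) reached 1258, 6764 and 20.3 RPM. In bulk RNA, fewer cells of a type and less RNA per cell cannot be told apart.

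Mouse oocytes make endogenous siRNAs alongside microRNAs and piRNAs. Dicer cuts them from long double-stranded RNA, in which a transcript pairs with an antisense transcript, with a transcribed pseudogene or with an inverted repeat of its own. Dicer products are short duplexes with overhangs at the 3' ends, and one strand is then bound by an Argonaute protein.

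The inserts with most reads on each strand are shown first, because their 5' ends carry much of the Optn signal. They are written 5' to 3' as sequenced, with T for U, and bases 2 to 8, the seed of an Argonaute-bound small RNA, are in capitals. The 5 antisense inserts with most reads were these.
Antisense insert 1: cAACAAGAtgcccactaagggaa
Antisense insert 2: cAACAAGAtgcccactaaggga
Antisense insert 3: tCAGTCAGaaagagccacatgg
Antisense insert 4: tAAAAACActggctggcttatg
Antisense insert 5: aACAAGATgcccactaagggaa

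Antisense inserts 1 and 2 began at the same base, 294 nt after the stop codon, and had 26 and 13 reads, all in the 19-30 nt library. Inserts of 23 nt, such as insert 1, cannot be sized in the 26 nt reads of the other libraries, whereas inserts of 22 nt, such as insert 2, can. In the 19-24 nt library 11 reads began at this base. Inserts 1 and 2 differ in length alone, 23 nt at chr2:5021057-5021079 and 22 nt at chr2:5021057-5021078 on the plus strand. Insert 5 began 1 base further along the antisense strand and had 6 reads. Inserts 3 and 4, at chr2:5021013-5021034 and chr2:5021147-5021168, had 10 reads each. Position here is counted from 1 at the first base after the stop codon.

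The 5 sense inserts with most reads were these, shown in the same way.
Sense insert 1: tTCTGCTCatgagagtcactgtg
Sense insert 2: tGTGTAATtctgtggaagttcc
Sense insert 3: tTAGTGGGcatcttgttgtga
Sense insert 4: tGTGTGTAattctgtggaagtt
Sense insert 5: tTCTGCTCatgagagtcactgtgaa

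Sense insert 1, 23 nt at chr2:5021122-5021144 on the minus strand, had 31 reads in the 19-30 nt library, and 15 and 3 reads of the 19-24 and 24-30 nt libraries, too short to size such an insert, began at its 5' end. Sense insert 5 shared its 5' end, 207 nt after the stop codon, ran to 25 nt and had 8 reads, as many as a further insert of 23 nt that is not shown. Sense inserts 2, 3 and 4 had 18, 12 and 9 reads, of which 0, 2 and 1 were in the 19-24 nt library. In that library 23, 7 and 11 reads of any insert began at their 5' ends. Counted from the 5' end of the insert, insert 3 differed from the annotated sequence by T21A and insert 5 by G25A, in bases that the match did not use. All 5 of these sense inserts started with U, against 2 of the 5 antisense inserts. Of the 5 antisense inserts only insert 4 shared its seed with a mouse microRNA in RefSeq, mmu-miR-7119-3p, and none of the 5 sense inserts did. Mature mouse microRNAs in that table use 1398 seeds, which is 8.53% of the 16384 possible 7-base sequences.

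Optn reads were abundant in the 2 libraries that held RNA shorter than 24 nt and sparse in the 24-30 nt library. Antisense reads numbered 66, 207 and 0 in the 19-24, 19-30 and 24-30 nt libraries. These counts came to 209 RPM (95% exact Poisson interval 162 to 266), 1409 RPM (1223 to 1614) and 0 RPM (up to 10.7). Sense reads numbered 135, 288 and 5 in the 19-24, 19-30 and 24-30 nt libraries, or 428 RPM (359 to 506), 1956 RPM (1737 to 2196) and 14.5 RPM (4.71 to 33.9). Both strands were therefore highest in the 19-30 nt and lowest in the 24-30 nt library, and none of these intervals overlapped between libraries. One 18 nt sense read of the 19-30 nt library also matched Gnas on the antisense strand and was given a weight of 0.5 in the RPM.

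With the 0 of the 24-30 nt library raised to a floor of 3 reads (8.70 RPM), antisense reads were at least 24.0-fold and at least 162-fold higher in the 19-24 and 19-30 nt libraries, and the counting intervals of these ratios begin at 19.0 and 130. Sense reads were 29.5-fold (12.3 to 92.2, conditional binomial interval) and 135-fold (57.1 to 418) higher than in the 24-30 nt library. Among 246 coding genes with at least 10 antisense reads over the 3 libraries, 6.1% reached 10-fold between the 19-24 and 24-30 nt libraries. Between the 19-30 and 24-30 nt libraries 31.7% did, and the same floor was used for both. Genes with few antisense reads in the 19-24 or 19-30 nt library could not reach 10-fold over that floor, whatever their true ratio. These shares therefore depend on depth. The median of the 246 genes was 1.09-fold and 6.25-fold. Of them, 91 had no antisense read in the 24-30 nt library, so their ratios were taken over the floor. The medians therefore depend on the floor and on depth and are not a measured typical enrichment. The 6.1% became 0.854% with every match counted in full, 12.9% with at least 20 antisense reads and 21.95% per read outside microRNA, a scale on which the Optn antisense ratio was 104-fold. Between the 19-24 and 19-30 nt libraries the Optn ratio was 0.148 for antisense (0.111 to 0.197) and 0.219 for sense reads (0.177 to 0.269). Per matched read outside microRNA these ratios became 0.564 (0.421 to 0.748) and 0.831 (0.672 to 1.02), so that the sense difference was no longer beyond counting error. The levels of the granulosa, stroma and red cell microRNAs also differed between those libraries, and the part of such cells in the result was not tested.

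Reads lay in a stretch of 297 nt near the start of the 3' UTR, which is 7.91% of the exon sequence of the gene. The stretch, chr2:5021009-5021305, runs from 46 to 342 nt after the stop codon, and the 367 nt of 3' UTR beyond it held none. Of the 3456 nt of other exon sequence only 1 place, a 20 nt match at chr2:5034163-5034182 in the coding region, held reads, 2 sense reads of the 24-30 nt library. No 20 nt stretch of the 3' UTR, of 690, occurred in another annotated transcript on either strand. The longest stretch of the 297 nt whose reverse complement also lies within it was 8 nt. The protein-coding neighbour Mcm10, which begins 7851 nt beyond the 3' end of Optn, had 1 sense read, and the antisense gene 4930551O13Rik, which lies within Optn upstream of the 3' UTR, had 0. Sequence outside annotated exons was not analysed here.

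**Figure D1:**
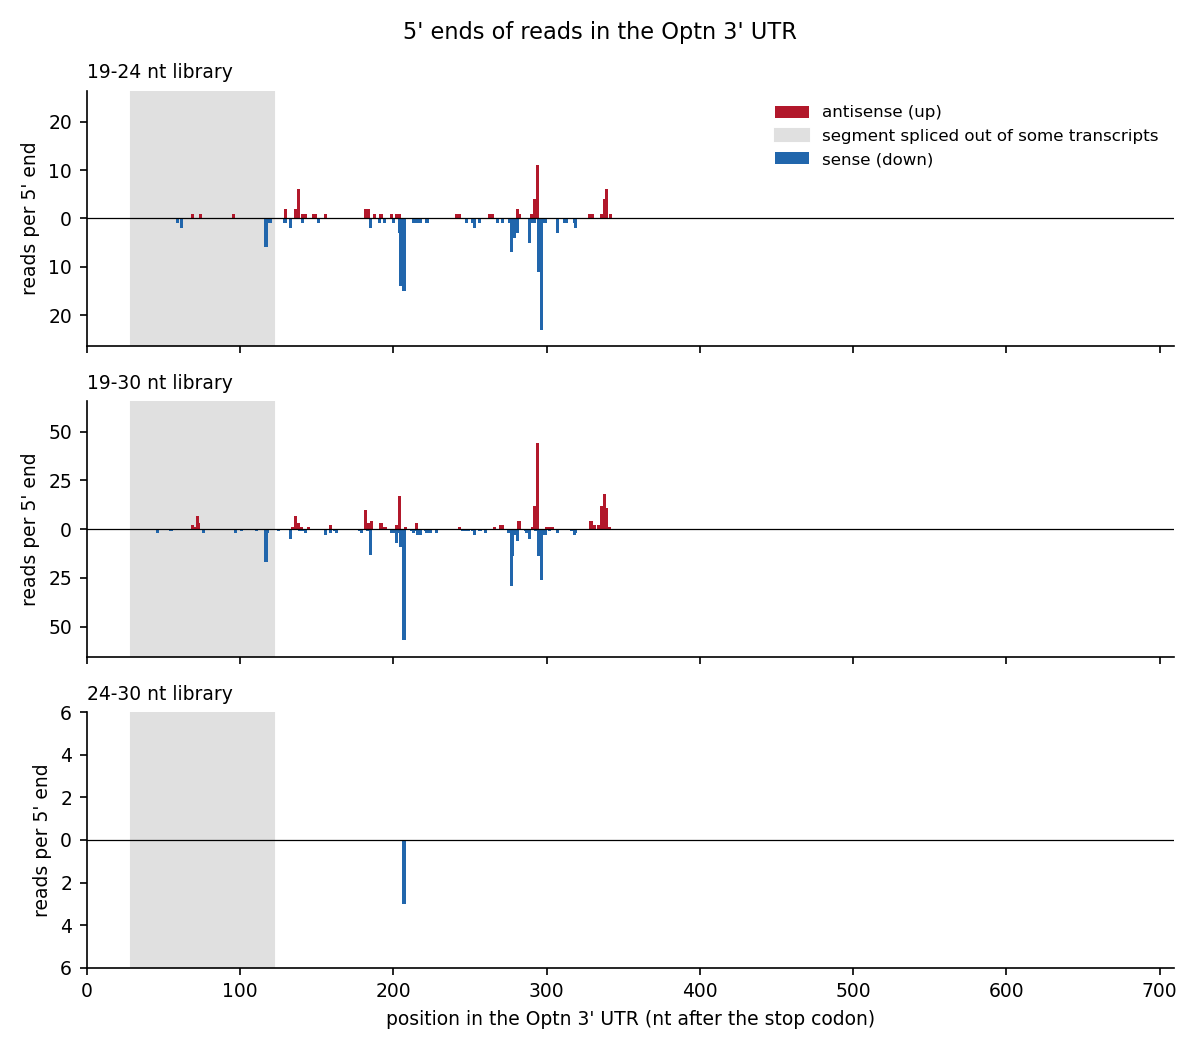
Reads per 5' end along the Optn 3' UTR in the 3 libraries, with antisense reads drawn up and sense reads drawn down, against distance after the stop codon in nt. All ends lie between 46 and 342 nt, the highest antisense bar at 294 nt holds 44 reads in the 19-30 nt library, and the grey band from 29 to 122 nt is removed by splicing in 2 transcripts.

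Antisense reads in the 3' UTR had 61 distinct 5' ends and sense reads 78. The 5 most used ends held 46.9% of 273 antisense and 48.8% of 426 sense reads. The most used antisense end, 294 nt after the stop codon, had 11 and 44 reads in the 19-24 and 19-30 nt libraries. The most used sense end, at 207 nt, had 15, 57 and 3 reads in the 19-24, 19-30 and 24-30 nt libraries. The next sense ends, at 297 and 277 nt, had 23 and 7 reads in the 19-24 nt library and 26 and 29 in the 19-30 nt library. The order of the sense ends thus differed between those libraries.

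The same ends recurred in the 19-24 and 19-30 nt libraries. Of the antisense ends, 17 were found in both, which is 48.6% of the 35 ends of the first and 39.5% of the 43 ends of the second library. They held 69.7% and 76.3% of the antisense reads of those libraries. Of the sense ends, 30 were found in both, 66.7% of 45 and 47.6% of 63, and they held 88.1% and 81.3% of the sense reads.

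A segment of 94 nt at chr2:5021229-5021322, from 29 to 122 nt after the stop codon, is kept by 1 annotated transcript and spliced out of 2. Reads that crossed an end of this segment without a splice numbered 11 antisense and 9 sense in the 19-24 nt library, and 14 antisense and 20 sense in the 19-30 nt library. A single antisense read of the 19-24 nt library matched the spliced junction. Most reads lay wholly beyond the segment, 51 antisense and 123 sense in the 19-24 nt library and 180 and 260 in the 19-30 nt library.

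Antisense reads made up 32.8% of Optn reads in the 19-24 nt library (95% Wilson interval 26.7 to 39.6) and 41.9% in the 19-30 nt library (37.6 to 46.3). Singly matching reads of the other coding genes, structural RNA aside, were 24.7% and 33.3% antisense in those libraries. In the 24-30 nt library 0 of 5 Optn reads were antisense (interval up to 43.4%). For the other coding genes the share was 70.0% there, but Yipf1 alone gave 67584 of their antisense reads, and without it, left out after its count was seen, the share was 11.9%. Without Yipf1 it was 23.9% and 31.7% in the 19-24 and 19-30 nt libraries.

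Lengths were read from the 19-30 nt library, where reads were long enough to size every counted insert. The most frequent length was 22 nt on both strands, with 86 of 207 antisense reads and 91 of 288 sense reads. Lengths of 20 to 23 nt made up 91.8% of antisense (87.2 to 94.8) and 80.2% of sense reads (75.2 to 84.4). For other coding genes the shares were 78.5% antisense and 80.9% sense. Reads of 25 to 30 nt made up 2.42% of antisense and 7.99% of sense Optn reads, against 14.9% and 10.9% for other coding genes. No Optn read counted in this library was longer than 27 nt. Counted per read, the antisense share thus lay above that of other coding genes by more than counting error. Per distinct insert it was 86.0% (77.9 to 91.5), an interval that reaches 78.5%, but their 78.5% counts reads. Their share per distinct insert was not computed, so whether Optn differs on that measure is not known. Nor was a high share particular to Optn. Over both strands it was 85.2% for Optn and between 84.3% (Zcchc3) and 90.1% (Prc1) for the 5 genes nearest to it in level, which are named further on. Sense reads at the 207 nt end were mostly 23 nt (34 of 57) or 25 nt long (13), whereas those at 297 nt were mostly 22 nt (19 of 26). At the most used antisense end 31 of 44 reads were 23 nt and 13 were 22 nt long. In the 19-24 nt library, whose reads allow no insert above 22 nt to be sized, 31 of 66 antisense and 81 of 135 sense reads were left without a length and no share is drawn from it.

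Sense reads started with U more often than antisense reads. U was the first base of 37.9% of antisense (27.1 to 49.9) and 79.3% of sense reads (71.7 to 85.2) in the 19-24 nt library. For the 19-30 nt library these shares were 36.2% (30.0 to 43.0) and 83.0% (78.2 to 86.9). C began 22 of 66 and 60 of 207 antisense reads in the 19-24 and 19-30 nt libraries, and 6.67% and 5.56% of sense reads. Without the most used antisense end, which starts with C, U began 45.5% and 46.0% of antisense reads. Counted per distinct end, U began 14 of 35 and 14 of 43 antisense ends and 53.3% and 54.0% of sense ends. In the 19-24 nt library the antisense share was 50.8% with up to 1 mismatch, 54.2% with whole inserts matched and 59.2% with up to 3 mismatches, and in the 19-30 nt library it stayed at or below 48.2% under these settings. U makes up 23.9% of the bases of the antisense strand of the 297 nt and 32.3% of those of the sense strand. Other coding genes had U first in 53.8% and 59.8% of antisense and 42.3% and 55.9% of sense reads.

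**Figure D2:**
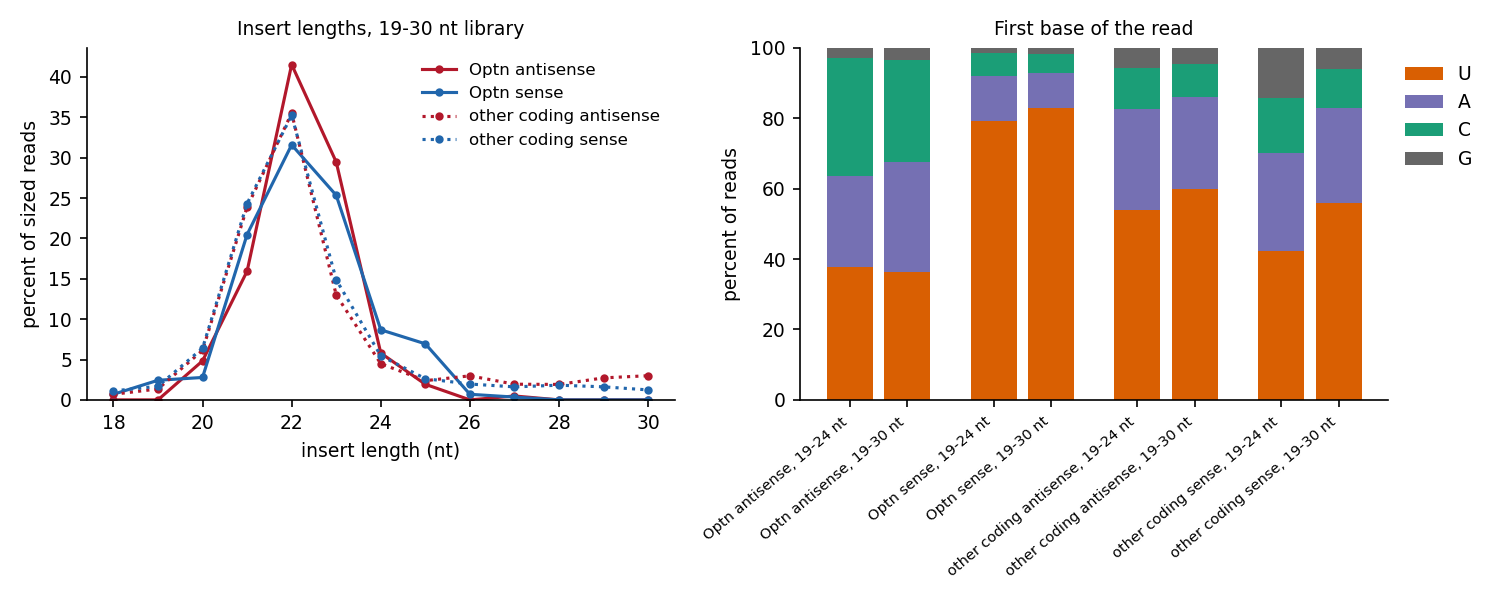
Left, percent of sized reads by insert length in nt in the 19-30 nt library for Optn (solid) and other coding genes (dotted), antisense in red and sense in blue, with all 4 curves highest at 22 nt. Right, percent of reads by first base in the 19-24 and 19-30 nt libraries, where U is 37.9% and 36.2% of Optn antisense but 79.3% and 83.0% of Optn sense reads.

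Opposite-strand overlaps were counted between distinct 5' ends. In a Dicer duplex of 21 or 22 nt with 2 nt overhangs the 5' ends overlap by 19 or 20 nt. Such pairs were 16 of 180 end pairs with 1 to 30 nt of overlap in the 19-24 nt library (8.89%) and 25 of 284 in the 19-30 nt library (8.80%). An even spread over 30 overlaps would put 6.67% at these 2. The share of the 19-24 nt library was 2.38% (0.42 to 12.3) with whole inserts matched and 3.85% (1.32 to 10.7) with 20 to 23 nt inserts alone. These lie below 6.67%, but both intervals include 6.67% and 8.89%. The most frequent overlap was 20 nt in the 19-24 nt library, with 9 pairs, and 16 nt in the 19-30 nt library, with 14 pairs, a count that 24 nt matched. With the 2 libraries pooled, 41 of 524 pairs (7.82%) overlapped by 19 or 20 nt and the most frequent overlap was 24 nt, with 24 pairs. When each pair was weighted by the product of its reads, 18 nt came first in both libraries. The pair that weighed most was the antisense end at 294 nt (55 reads) with the sense end at 277 nt (36 reads), 15.4% of the pooled weight. That pair overlaps by 18 nt and gave 1980 of the pooled weight of 2206 at this length, ahead of 1361 at 17 nt. In the counts of distinct end pairs no overlap length stood clear of the others. Whether the reads depend on Dicer was not tested.

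**Figure D3:**
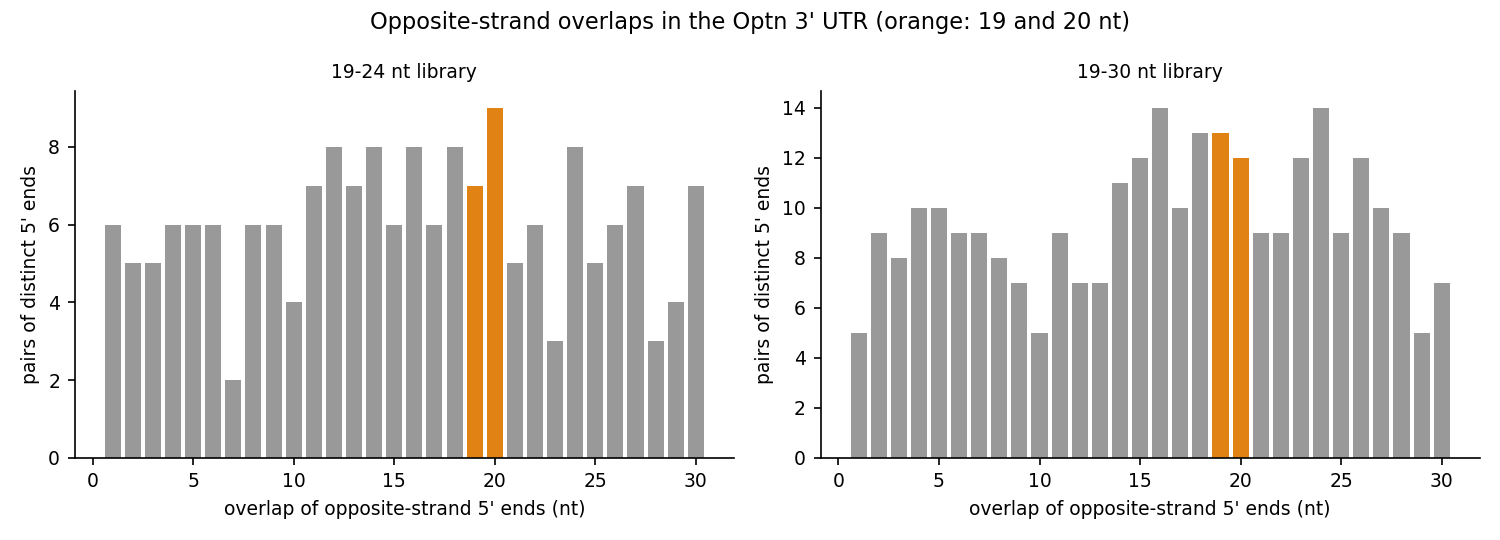
Number of pairs of distinct opposite-strand 5' ends by overlap in nt, in the 19-24 nt library (left) and the 19-30 nt library (right), with 19 and 20 nt in orange. The bars at 19 and 20 nt hold 16 of 180 and 25 of 284 pairs and in the 19-30 nt library, at 13 and 12 pairs, stand below the 14 pairs at 16 and at 24 nt.

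Some inserts of opposite strands had the lengths and positions of a complete duplex. Whether such strands were paired in the cell was not tested, and no count for other overhangs is set beside theirs. Among 52 antisense and 77 sense inserts of 20 to 23 nt that matched over their whole length, 7 pairs were of equal length with 2 nt overhangs at both 3' ends, 5 of them of 22 nt. The pair with most reads on its rarer strand is shown with its 20 paired bases in capitals and its overhangs in lower case.
Antisense strand of the duplex: TAAAAACACTGGCTGGCTTAtg
Sense strand of the duplex: TAAGCCAGCCAGTGTTTTTAtg

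The antisense strand is antisense insert 4 above and had 10 reads, and the sense strand began 185 nt after the stop codon and had 5. In the other 6 pairs the rarer strand had 1 read. The most frequent antisense insert of 22 nt, with 13 reads, was paired in this way with a sense insert of 1 read.

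Reads that matched no transcript perfectly were compared with the Optn 3' UTR with 1 to 3 mismatches in the first 20 nt, a search chosen after the data were seen. In the 19-24 and 19-30 nt libraries together 510 such reads lay in the 297 nt or within 20 nt of it, and 8 in the rest of the 3' UTR. In the 24-30 nt library 1 and 8 did. They comprised 118 antisense and 64 sense reads in the 19-24 nt library, and 202 antisense and 126 sense reads in the 19-30 nt library. With them, antisense reads made up 47.9% (42.9 to 52.9) and 49.7% (46.3 to 53.1) of the Optn reads in the 3' UTR of those libraries. Mismatched reads were 64.5% and 49.4% of antisense, against 32.2% and 30.4% of sense reads.

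Several differences recurred in antisense reads and hardly occurred in sense reads. Each is written with the annotated base of the messenger strand, its position after the stop codon and the base of the reads on the same strand. G160A was carried by all 97 antisense reads over the position, 55 and 42 in the 19-24 and 19-30 nt libraries (100%, 96.2 to 100). The 18 sense reads over it all had the annotated base (0%, 0 to 17.6). Of the 97, 87 began at this base, and the 10 others, from 5 further ends, carried it inside the read. C141T was carried by 71 of 126 antisense reads (56.3%, 47.6 to 64.7), 37 of 64 and 34 of 62 in those libraries, and by 1 of 27 sense reads. T76C was carried by 27 of 31 antisense reads (87.1%, 71.1 to 94.9), 9 of 13 and 18 of 18, and by 0 of 7 sense reads. At 141 nt 46 antisense reads had the annotated base. At 76 nt 0 antisense reads had it, and those without T76C carried another base. Sense reads over these positions were few, 2 over 160 nt in the 19-24 nt library and 4 and 3 over 76 nt in the 19-24 and 19-30 nt libraries.

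The antisense end at 160 nt had 87 reads with mismatches and 0 without. The antisense end with most perfectly matching reads, at 294 nt, had 25 reads with mismatches and 55 without. The 3 inserts of the 160 nt end with most reads are shown with the bases that differ from the annotated 3' UTR in capitals.
Antisense insert with differences 1: TtctttgtgacttcctgtcAgt
Antisense insert with differences 2: Ttctttgtgacttcctgtcggt
Antisense insert with differences 3: TtctttgtgacttcctgtcATt

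They lie at chr2:5021191-5021212 on the plus strand, are 22 nt long and had 14, 13 and 11 reads. Of those, 3, 3 and 11 were in the 19-24 nt library and 11, 10 and 0 in the 19-30 nt library. Counted from the 5' end of the insert and in its own strand, the inserts carry C1T with G20A, C1T alone, and C1T, G20A and G21T. G21T was thus seen here in the 19-24 nt library alone. C1T is G160A and G20A is C141T of the messenger strand. Of the 87 antisense reads that covered both positions, 51 carried both differences and 36 G160A alone. The 4 sense reads that covered both carried neither. Away from this end C141T was carried by 20 of 39 antisense reads.

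The remaining 9 of the 12 differences seen in at least 10 reads stood in under 25% of the reads of either strand. T133C, in 16 of 66 antisense (24.2%, 15.5 to 35.8) and 0 of 52 sense reads, had the highest share of them, with 1 of 23 and 15 of 43 antisense reads in the 19-24 and 19-30 nt libraries. The highest share among sense reads was 9.80%, for G296T. As sequenced, T278G, T281G, T320G and T322G of antisense reads and A218C and A220C of sense reads are all changes from A to C. Whether these are sequencing errors was not tested. In the 19-30 nt library 91.1% (86.4 to 94.3) of the 202 antisense reads with mismatches and 91.8% of the 207 without were 20 to 23 nt long. Their first base was more often U, 64.4% (59.0 to 69.4) of 320 reads over the 19-24 and 19-30 nt libraries against 36.8% (31.3 to 42.6) of 272 without mismatches, the spliced read aside. The 87 reads of the 160 nt end are among them. Sense reads with and without mismatches had U first in 77.9% and 81.8%. No genome was searched, so whether these antisense reads match another place perfectly was not tested.

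**Figure D4:**
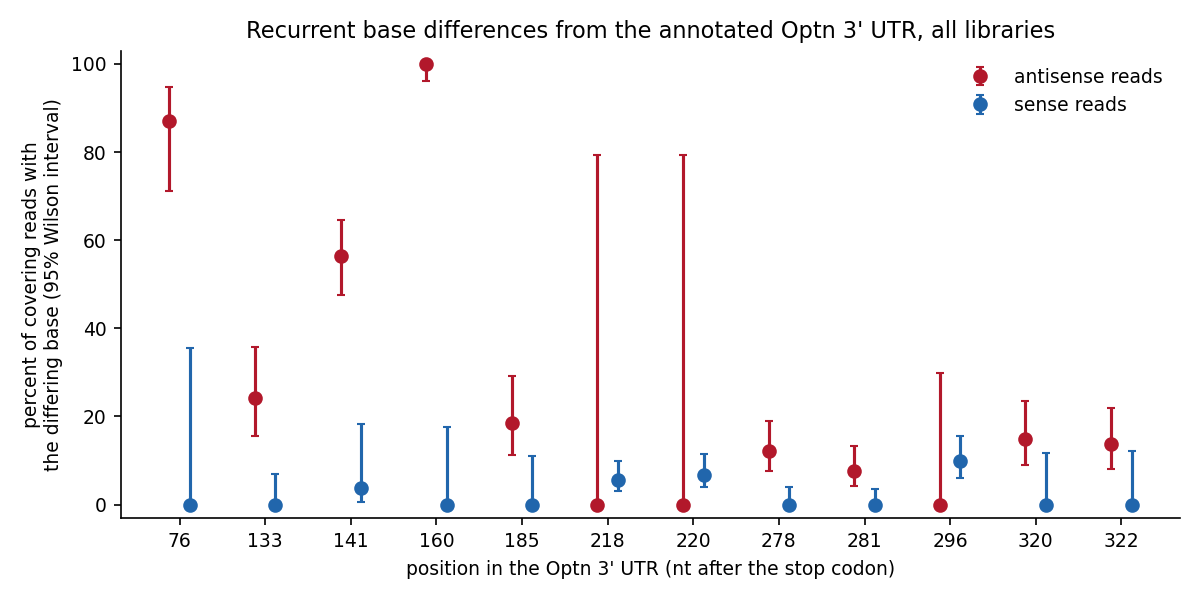
Percent of covering reads with the differing base at the 12 positions of the Optn 3' UTR where a difference from the annotation was seen in at least 10 reads, by distance after the stop codon in nt, antisense in red and sense in blue, with 95% Wilson intervals. At 76, 141 and 160 nt antisense reads stand at 87.1%, 56.3% and 100% while sense reads stand at or below 3.70%.

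Set among all genes, Optn was 1 of 246 of the 22028 coding genes (1.12%) with at least 10 singly matching antisense reads over the 3 libraries. It ranked 8 by that count, and 5 of 241 when genes whose antisense reads overlap structural RNA were left aside. At least 10 reads on each strand were found for 153 coding genes (0.695%), among which Optn ranked 3 by the count on its rarer strand. Antisense reads were 39.0% of its singly matching reads, and the median of the 153 genes was 44.4%.

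Likeness to Optn was measured by the Euclidean distance of log2(RPM + 1) of singly matching reads on each strand in the 3 libraries (6 values). The 5 nearest coding genes were Kif4, C130026I21Rik, Trim71, Zcchc3 and Prc1, at distances of 0.91, 3.13, 3.20, 3.82 and 4.78. Kif4, which encodes a chromosome-associated kinesin, had 56, 134 and 0 antisense and 94, 229 and 5 sense reads in the 19-24, 19-30 and 24-30 nt libraries. It overlaps Pdzd11 on the opposite strand at chrX:100625737-100626568, and reads in the overlap count for both genes. Trim71, which encodes an RNA-binding ubiquitin ligase of early embryos, had 69, 135 and 2 antisense reads and 70, 129 and 5 sense reads. Prc1, which encodes an organiser of the central spindle, had fewer antisense reads, 10, 17 and 0.

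**Figure D5:**
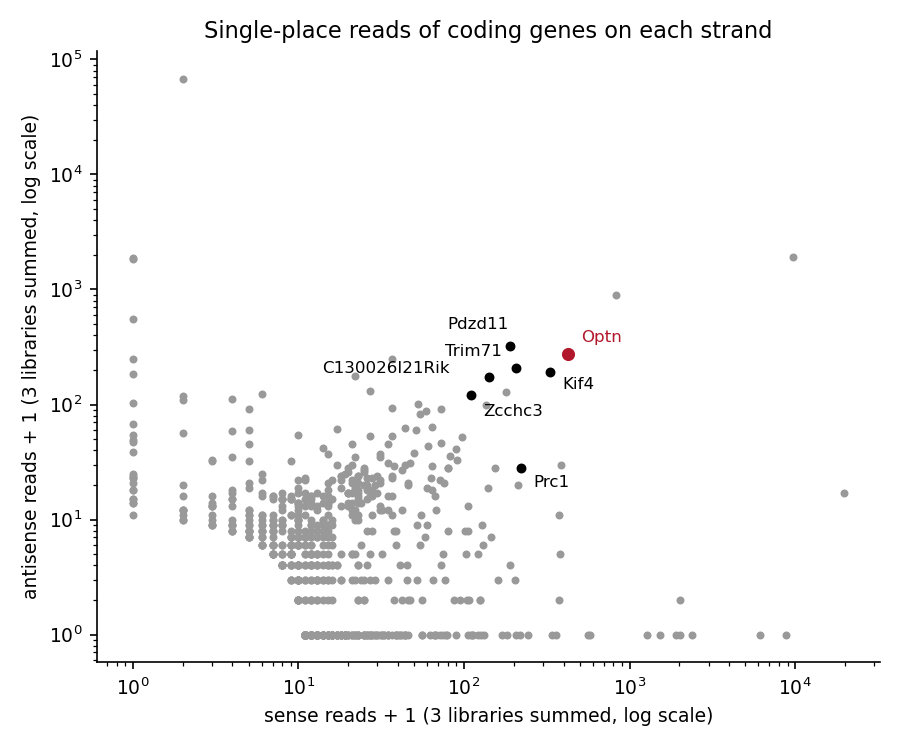
Singly matching antisense reads against sense reads, each plus 1 and summed over the 3 libraries on log axes, for coding genes with at least 10 such reads. Optn (red) stands at 273 antisense and 427 sense reads, and the 5 genes nearest to it in the 6 levels and Pdzd11 are labelled.

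Of 7 other listed parental genes of oocyte siRNAs, Pdzd11, Kif4, Rangap1 and Ppp4r1 had at least 10 singly matching antisense reads. They had 321, 190, 111 and 10 over the 3 libraries. Dynll1 had 7, and Hdac1 and Cdk1 had 0. Reads of several places, weighted by 1 over their number, raised some of these counts. In the 19-24, 19-30 and 24-30 nt libraries Rangap1 then had 139, 141 and 1.34 antisense reads and Ppp4r1 19, 35.5 and 0.5. Dynll1 then had 5.60, 12.3 and 0.889, and Hdac1 0.896, 1.31 and 0.217. The list had been named from earlier work and is no independent evidence. Rangap1, whose product activates the GTPase Ran, differed from Optn in strand. Its singly matching reads were 70, 40 and 1 antisense and 0, 3 and 0 sense in the 19-24, 19-30 and 24-30 nt libraries. Weighted sense reads were 3.52, 16.4 and 0.0340.

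A list of 26 genes was made for selective autophagy, the TBK1 pathway and binding to optineurin. Of these, 2 (7.69%) had at least 10 singly matching antisense reads, against 1.12% of all coding genes. The list was chosen with earlier results of these data known, and 2 genes are too few to read a difference from. Gtf3a, which encodes the transcription factor TFIIIA, whose protein binds optineurin in humans, had 8, 13 and 0 antisense and 2, 18 and 0 sense reads. Sqstm1, which encodes the autophagy receptor p62, had 2, 8 and 2 antisense and 2, 12 and 3 sense reads. Of the other 24, 3 had 1 to 3 antisense reads and 21 had 0, Tbk1 itself among them. Any antisense read was thus found for 5 of the 26, and for 10.1% of all coding genes.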

How the data were processed

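Per the labels, total RNA was extracted with Trizol, cut from gels, ligated to Solexa adapters, amplified and sequenced. In the deposited files each entry is an untrimmed read with base qualities, another kind of value than a count. The sources used here do not give an aligner or genome build of the authors. The reads were therefore counted here in place of the planned unit, and no test was made.

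The linker, read from the most frequent read of the 19-30 nt library, was trimmed with an overlap of at least 4 (26 nt reads) or 6 bases (36 nt reads) and up to 20% mismatches. Inserts of 18 nt or more were kept. In 26 nt reads an insert without a linker counted as 23 nt or longer, and 36 nt reads without one were set aside. Where whole inserts were matched, the first 23 nt of 26 nt reads without a linker were used. Reads of low complexity (80% or more of 1 base) and reads whose first 18 bases were not all called were dropped. The first 20 nt had to match 1 of 141767 GENCODE M21 transcripts (GRCm38) perfectly, on either strand, or the whole insert when shorter. A read with several places was weighted by 1 over their number, and over 1000 places it was dropped. Read counts of named genes other than Optn are of singly matching reads unless called weighted. Shares have Wilson, RPM exact Poisson and ratios conditional binomial intervals at 95%. PCR reads are not independent molecules. The floor for a count of 0 was 3 reads. A fold of 10 and a minimum of 10 reads were used for all coding genes.

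Optn, the gene lists and the rules for named genes were chosen with earlier results of these data known. Named were the siRNA parents of earlier work, the 5 genes nearest in level, pathway genes with at least 10 antisense reads, neighbours within 20000 nt and the 5 top inserts per strand. MicroRNA sequences are from RefSeq. Python 3.11.15, numpy 2.4.6, pandas 2.3.3 and scipy 1.17.1 were used, and trimming, counting and ratio steps were tested on simulated data.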

Additional observations from a re-analysis of the deposited data

Results flagged for a closer look

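In the 19-30 nt library, reads without a recognised linker were set aside as inserts over 30 nt, and none of the comparisons used them. Among these, 57 antisense and 172 sense reads matched Optn over their first 20 nt, above the limit of 3 reads that a count of 0 allows, and all lay in the 297 nt with the other reads. Of them, 50 antisense and 158 sense reads had a 5' end that a counted read also had. With up to 40% mismatches in the linker, a setting chosen after the data were seen, 47 antisense and 144 sense reads were given a length, and 93.6% and 88.9% of those were 20 to 23 nt long.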

How the results depend on the processing

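The alternatives gave 192 values for 21 results, of which 150 stayed within the interval (for the gene share, within 1.5 times) and 42 moved. No paired analysis was possible because each gel window has 1 library, and for the same reason no replicate could be left out.

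Up to 1 mismatch raised antisense and sense reads to 393 and 542 RPM in the 19-24 nt and 2259 and 2603 RPM in the 19-30 nt library. Their antisense shares became 42.0% and 46.5%, and U first 50.8% and 44.9% of antisense reads. Up to 3 mismatches in the 3' UTR, chosen after the data were seen, gave 583 and 630 RPM, 2783 and 2814 RPM, antisense shares of 48.0% and 49.7%, and U first 59.2% and 48.2% of antisense reads. Per matched read outside microRNA, antisense and sense reads came to 974 and 1992 RPM (19-24 nt) and 1726 and 2397 RPM (19-30 nt), and per usable insert to 96.8 and 198, and 472 and 656 RPM, with 3.51 RPM of sense reads in the 24-30 nt library. Counting distinct inserts gave 765 and 1396 RPM (19-24 nt) and 39.6 RPM of sense reads (24-30 nt). In the 19-30 nt library it gave U first in 72.9% of sense reads and 20 to 23 nt in 86.0% of antisense and 72.9% of sense reads. Matching whole inserts left 0.0 RPM of sense reads in the 24-30 nt library, U first in 54.2% of antisense reads and 2.38% of end pairs at 19 or 20 nt in the 19-24 nt library. It also gave 20 to 23 nt in 97.3% of antisense and 91.4% of sense reads (19-30 nt). Ends of 20 to 23 nt inserts alone put 3.85% (1.32 to 10.7) of the 19-24 nt pairs at 19 or 20 nt. This lies below the 6.67% of an even spread, which the interval includes. Reads of the 19-30 nt library without a linker, counted after the data were seen, gave 2294 RPM of sense reads and 36.5% antisense. The share of genes past 10-fold between the 19-24 and 24-30 nt libraries was 0.854% with every match in full, 21.95% per read outside microRNA and 12.9% with at least 20 antisense reads. The causes of the moves were not tested, other than that settings which admit more reads raise RPM by construction.

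The 5 Optn reads of the 24-30 nt library and the 52 fully matching antisense inserts limit what can be said of that window and of duplexes.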
